A study of Homo sapiens with 10 samples.

Results

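The miR-7 and miR-671 arms are the microRNAs (miRNAs) tied most closely to the circular RNA CDR1as, also called ciRS-7. They were followed here in the embryonic kidney cell line HEK-293, of human origin, after silencing of 2 long noncoding RNAs. The set was chosen by name, with earlier results of the same comparisons known, and holds 5 of the 1080 named human mature probe sets on the arrays: miR-7-5p (hsa-miR-7_st), miR-7-1-3p (hsa-miR-7-1-star_st), miR-7-2-3p (hsa-miR-7-2-star_st), miR-671-5p (hsa-miR-671-5p_st) and miR-671-3p (hsa-miR-671-3p_st). Their differences between groups are therefore given as descriptions with no p-value. How many of them were called in a fit over all detected probe sets is counted beside the share of all probe sets called, and no support is drawn from it. Cells received 10 nM of an siRNA against LINC00324 (siRNA 1 or siRNA 2), of an siRNA against LOC400043 (siRNA 1 or siRNA 2), or of a scramble siRNA as control. Each of the 5 groups had 2 arrays, 10 in all, of this single cell line. In RefSeq (GRCh38.p14) LINC00324 lies at chr17:8220630-8224043, and LOC400043 is listed as LINC02381 at chr12:54126071-54132843. Levels of the silenced RNAs and of CDR1as were not analysed here, so how far each siRNA lowered its target is unknown. Replicates are labelled as biological, but no separate cultures are named, so spreads and tests cover only the variation between these arrays.

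CDR1as is a circular RNA of neurons that carries a dense row of miR-7 sites and a near-complementary miR-671-5p site. Binding of miR-671-5p directs cleavage of the circle, while the miR-7 sites hold miR-7 with little loss of the circle. In mice, loss of Cdr1as lowers miR-7 and raises miR-671 in the brain, and the long noncoding RNA Cyrano directs the destruction of miR-7. miR-7-5p itself is a conserved regulator of neurons, pancreatic endocrine cells and growth factor signalling.

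The mature sequences in the authors' deposited tables are shown because the arms differ in seed and in base composition, both of which are used further on. Capitals mark the seed, bases 2 to 8 from the 5′ end.
miR-7-5p: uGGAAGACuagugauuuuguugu
miR-7-1-3p: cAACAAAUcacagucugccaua
miR-7-2-3p: cAACAAAUcccagucuaccuaa
miR-671-5p: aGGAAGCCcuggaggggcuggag
miR-671-3p: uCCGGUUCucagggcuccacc
RefSeq gives miR-7-5p with 24 bases, 1 more than the 23 of the deposited sequence. Over bases 1 to 8, counted from the 5′ end, miR-7-5p and miR-671-5p share 6 bases and differ by U1A and A7C. The 2 seeds are thus not the same, and no other probe set among the 1080 carries the seed of miR-7-5p, miR-671-5p or miR-671-3p. The passenger arms miR-7-1-3p and miR-7-2-3p share their seed with each other. They differ by A10C, G17A, A20U and U21A, with 18 of 22 bases the same. GC content was 34.8% for miR-7-5p, 40.9% for both passenger arms, 69.6% for miR-671-5p and 66.7% for miR-671-3p.

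miR-7-5p is made from 3 genes, whereas miR-671 has 1. All positions are those of RefSeq, GRCh38.p14. MIR7-1 lies at chr9:83969748-83969857 on the minus strand, within the bounds of HNRNPK, a gene for an abundant RNA-binding protein. MIR7-2 lies at chr15:88611825-88611934 on the plus strand, within AEN, a gene for a p53-responsive nuclease. MIR7-3 lies at chr19:4770670-4770779 on the plus strand, within its host gene MIR7-3HG. MIR671 lies at chr7:151238421-151238538 on the plus strand, within CHPF2, a gene for a chondroitin-synthesis enzyme. The RefSeq hairpins of 3 of these genes show how the arms sit in 1 precursor. Capitals mark stretches equal to a mature arm.
MIR7-2: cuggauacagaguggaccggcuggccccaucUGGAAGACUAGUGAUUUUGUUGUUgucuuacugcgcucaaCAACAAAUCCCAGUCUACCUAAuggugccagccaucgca
MIR7-3: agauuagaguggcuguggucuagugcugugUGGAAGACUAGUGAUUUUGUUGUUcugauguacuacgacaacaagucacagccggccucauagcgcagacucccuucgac
MIR671: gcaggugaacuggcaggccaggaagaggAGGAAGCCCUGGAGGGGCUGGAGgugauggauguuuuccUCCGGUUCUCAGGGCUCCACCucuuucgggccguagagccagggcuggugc
The stretch of miR-7-5p is identical in the MIR7-2 and MIR7-3 hairpins, so a probe for the mature arm cannot tell the genes apart. The passenger arms can tell MIR7-1 from MIR7-2, while none is given here for MIR7-3.

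Levels are log2 signals as normalized by the authors, and SE is the standard error of a difference in limma. The authors normalized the arrays in 2 runs that share the same 2 scramble arrays: run 1 with LINC00324 and run 2 with LOC400043. Each silenced group was set against the scramble values of its own run. As both runs hold the same 2 scramble arrays, all comparisons with scramble share their controls, across runs as well. Detection required a mean signal above 1.31, the 95th percentile of 2392 plant probe sets on the same arrays. For human probe sets, the LOC400043 arrays were first moved by the difference of the scramble means between runs, while the plant floor used values as deposited. By this floor 322 of 1080 human probe sets (29.8%) were detected. Median detected signals per array in run 1 ran from 4.11 to 4.40 for scramble and LINC00324 siRNA 1, and were 3.45 and 3.77 on the LINC00324 siRNA 2 arrays. In run 2 they were 4.55 and 4.47 for scramble and ran lower, from 4.18 to 4.33, for LOC400043 arrays. Arrays of a group correlated with r from 0.973 to 0.988 across detected probe sets. Of marker miRNAs of other cell types, 1 of 4 neuronal, 0 of 1 endocrine, 0 of 3 muscle, 0 of 1 liver and 0 of 3 blood markers were above the floor. The neuronal marker detected was miR-128-3p, at 6.04 in scramble cells, while miR-9-5p, miR-124-3p and miR-137 lay under the floor.

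Of the 5 probe sets, 4 passed the floor and entered the fit over all detected probe sets. miR-671-3p did so narrowly, with a mean of 1.309 against a floor of 1.306, and miR-7-2-3p did not, with a mean of 0.99. The pass of miR-671-3p rested on the moved LOC400043 arrays. With values as deposited its mean was 1.280, under the floor. miR-7-5p had the widest range of the 5, from 1.24 to 4.38. The ranges were 1.27 to 2.83 for miR-7-1-3p, 0.66 to 1.74 for miR-7-2-3p, 3.68 to 5.17 for miR-671-5p and 0.70 to 1.54 for miR-671-3p. Signals of different probe sets are not on a common scale of abundance and are not ranked against each other.

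**Figure D1:**
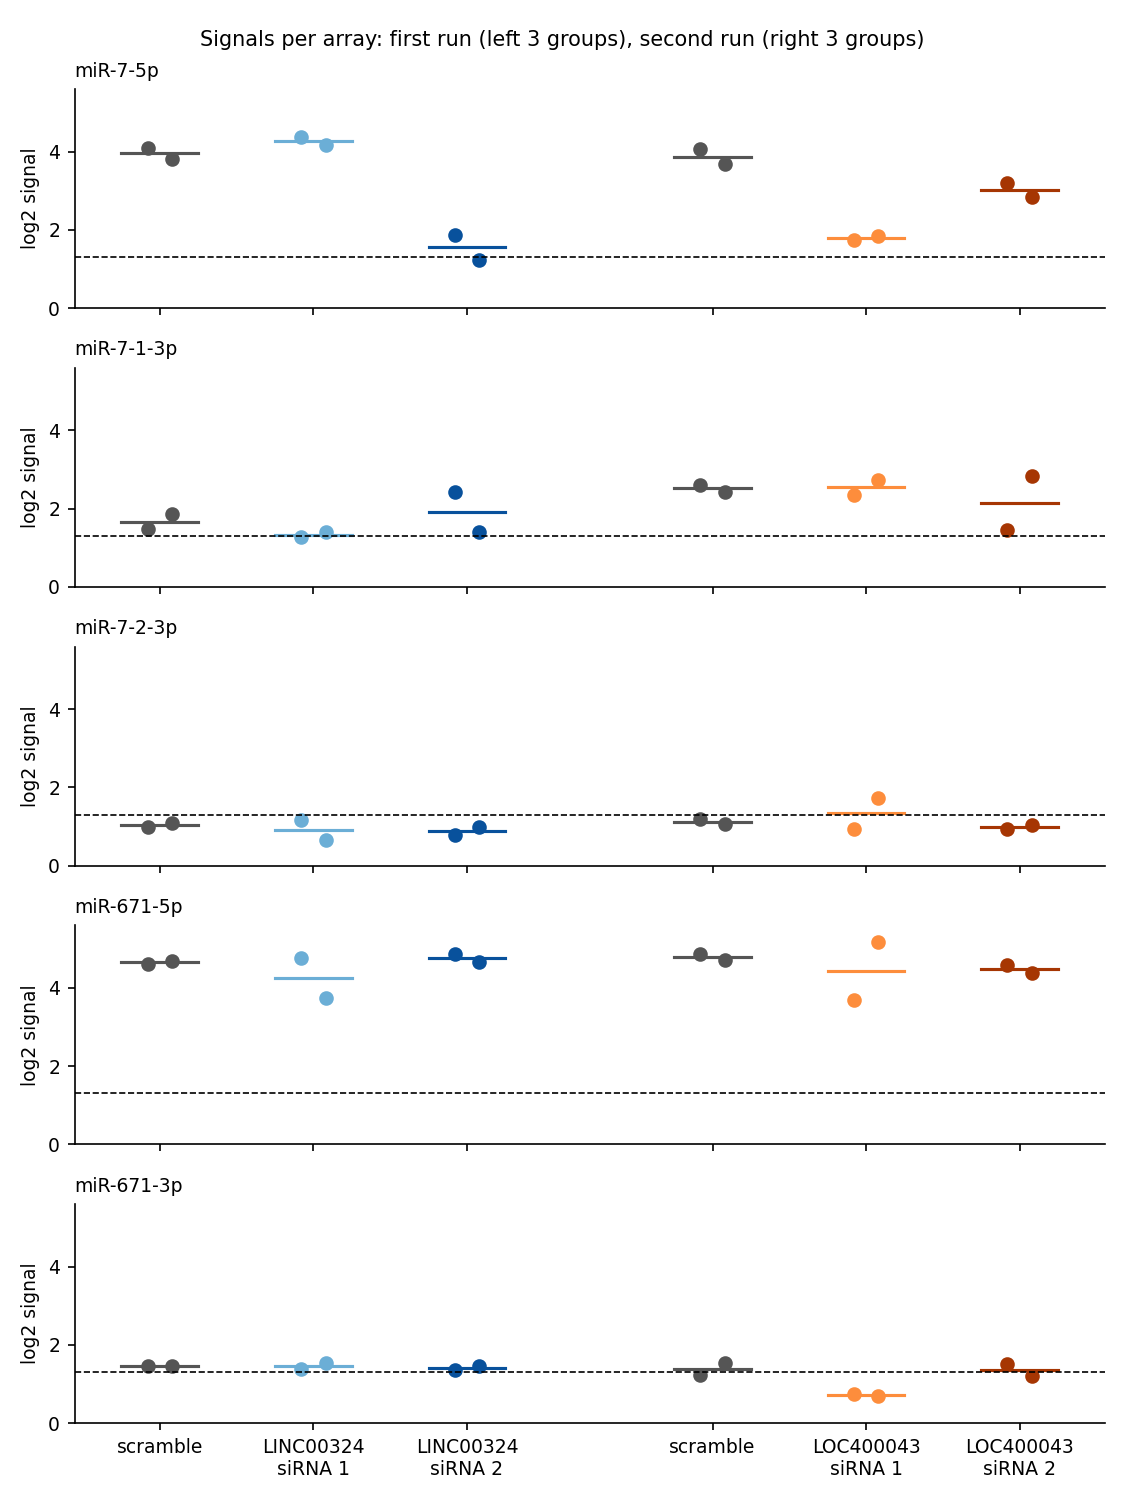
Log2 signal (vertical axis) of the 5 probe sets on each array (points) with group means (bars), in run 1 (left 3 groups) and run 2 (right 3 groups, with the same 2 scramble arrays as normalized there), the dashed line being the detection floor of 1.31. miR-7-5p lies under 2 on the LINC00324 siRNA 2 and LOC400043 siRNA 1 arrays and at 2.85 or higher on all others.

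For LINC00324, the question was whether the arms change when this RNA is silenced. miR-7-5p was low with siRNA 2 and not with siRNA 1. It read 4.10 and 3.81 on the scramble arrays, 4.38 and 4.16 with siRNA 1, and 1.86 and 1.24 with siRNA 2. Both siRNA 2 arrays lay below every other array of the run, and the second lay below the detection floor. The siRNA 1 arrays lay above the scramble arrays by a narrow margin, the nearest pair being 4.16 and 4.10.

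Group means of miR-7-5p were 3.95 ± 0.21 (SD, n = 2) for scramble, 4.27 ± 0.15 (SD, n = 2) after LINC00324 siRNA 1 and 1.55 ± 0.44 (SD, n = 2) after siRNA 2. The difference of siRNA 2 from scramble was −2.40 (SE 0.25), a 5.29-fold lower signal, or at least 2.37 on the log2 scale with the array under the floor set to it. None of the other 321 detected probe sets had a lower difference. With siRNA 1 the difference was 0.32 (SE 0.25), and 272 of the detected probe sets lay below it. The 2 siRNAs differed from each other by −2.72 (SE 0.25), or at least 2.69 from the floor, again the lowest of the 322. The order from high to low was siRNA 1, scramble, siRNA 2, of which the first 2 differed by little more than 1 SE although their arrays did not overlap.

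The median signal of the siRNA 2 arrays was low as well, as given above, and its part in the miR-7-5p difference was not tested. With each array centred on its median the difference from scramble was −1.72, but centring also moved the median of all 322 from −0.21 to 0.47. With the trend of each array on GC content removed the miR-7-5p difference was −2.29. The 28 detected probe sets within 5 points of the GC content of miR-7-5p had a median difference of −0.06 with siRNA 2 and 0.03 with siRNA 1. In limma, with Benjamini-Hochberg adjustment over 322 probe sets, 9.94% of detected probe sets were called at an adjusted p under 0.05 with siRNA 2 and 8.39% with siRNA 1. Between the siRNAs 2.17% were called. Of the 4 arms in the fit, 1 was called with siRNA 2 and 1 between the siRNAs, miR-7-5p both times, and 0 with siRNA 1. Since the arms were chosen on these comparisons, nothing is read from that count. Without scramble replicate 1, where miR-7-5p differed by −2.26, the siRNA 2 call was lost. Groups did not overlap for 49.7% of detected probe sets with siRNA 1, 56.2% with siRNA 2 and 46.0% between the siRNAs.

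For LOC400043, both siRNAs gave lower miR-7-5p than scramble, siRNA 1 the more so. In run 2 the scramble arrays read 4.06 and 3.67, the siRNA 1 arrays 1.74 and 1.83, and the siRNA 2 arrays 3.19 and 2.85. The 3 groups did not overlap. Both siRNA 1 arrays stood above the floor and close to each other.

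The means were 3.87 ± 0.28 (SD, n = 2) for scramble, 1.78 ± 0.07 (SD, n = 2) for siRNA 1 and 3.02 ± 0.24 (SD, n = 2) for siRNA 2. The difference from scramble was −2.08 (SE 0.25) with siRNA 1, a 4.24-fold lower signal, and 3 of the detected probe sets lay lower. With siRNA 2 it was −0.85 (SE 0.25), or 1.80-fold, with 32 probe sets lower. siRNA 2 exceeded siRNA 1 by 1.24 (SE 0.25), a 2.36-fold higher signal, and 316 of the detected probe sets lay below that difference. In the same limma fit 5.90% of probe sets were called with siRNA 1, 1.55% with siRNA 2 and 1.55% between the siRNAs. Of the 4 arms, 1 was called with siRNA 1, miR-7-5p, and 0 in the other 2 comparisons. The share of probe sets without overlap was 58.1% with siRNA 1, 51.2% with siRNA 2 and 42.9% between the siRNAs.

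GC content was set beside these values, and its part in them was not tested. The 28 detected probe sets of GC content like that of miR-7-5p had a median difference of −0.36 with LOC400043 siRNA 1 and −0.31 with siRNA 2, against −0.11 and −0.13 for all 322. Their single values ran widely, from −3.09 to 0.61 with siRNA 1 and from −2.94 to 1.12 with siRNA 2. With the GC trend of each array removed, miR-7-5p differed by −1.45 with siRNA 1, no longer called, and by −0.46 with siRNA 2. Centring on array medians gave −0.55 with siRNA 2, where it moved the median of all 322 from −0.13 to 0.16. Quantile normalization gave −0.49. The siRNA 1 call was also lost with either scramble array left out (−1.89 without replicate 1, −2.28 without replicate 2) and with either siRNA 1 array left out (−2.04 without replicate 1, −2.13 without replicate 2). miR-7-5p kept its direction in all 6 comparisons under each alternative that tested it; the stricter floor left it out.

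In the authors' deposited tables, which pool the 2 siRNAs of a target, miR-7-5p has a log2 fold change of −1.044 for LINC00324 and −1.464 for LOC400043. For LINC00324 that pooled value averages the 2 siRNAs, which lay on opposite sides of scramble, siRNA 1 by only 0.32 (SE 0.25).

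**Figure D2:**
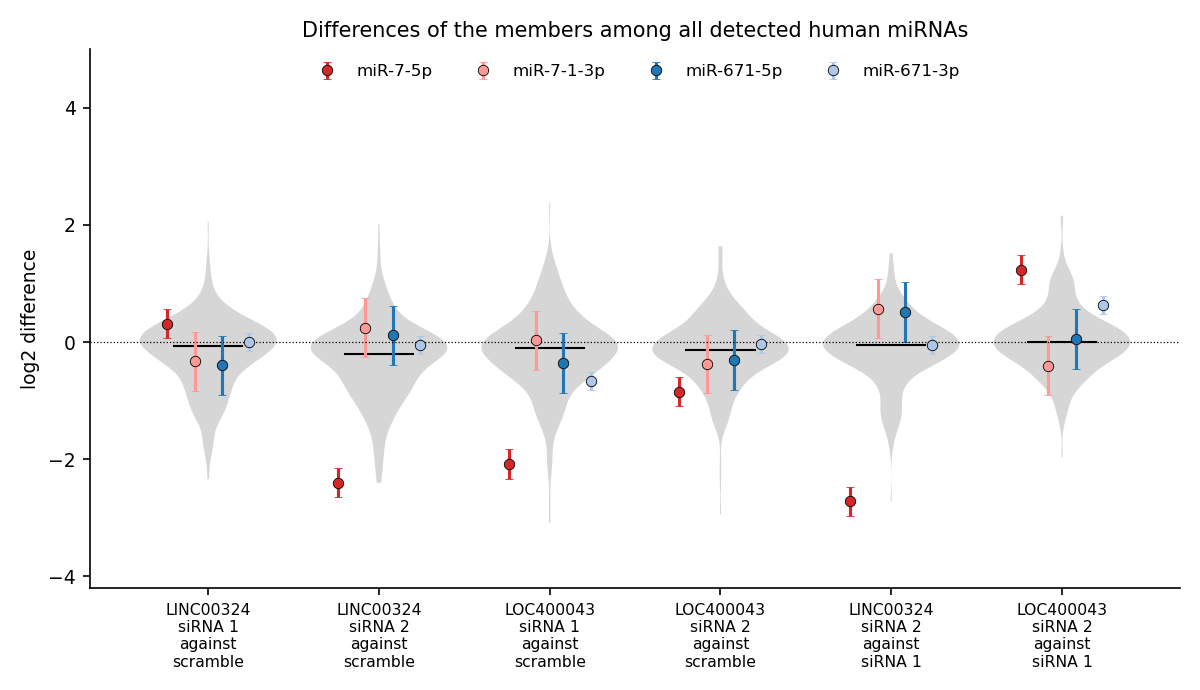
Log2 difference (vertical axis) of the 4 detected arms (points, with bars of 1 SE) in the 6 comparisons (horizontal axis), over the distribution of all 322 detected probe sets (grey, with its median as a line). The miR-7-5p points at −2.40 and −2.72 mark the lower end of their distributions, and the other arms lie within them.

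The passenger arms lay too close to the floor to show a change as large as that of miR-7-5p. miR-7-1-3p, the partner strand from MIR7-1, read 1.48 and 1.85 on the scramble arrays of run 1, 1.27 and 1.40 with LINC00324 siRNA 1, and 2.42 and 1.40 with siRNA 2. In run 2 it read 2.61 and 2.42 for scramble, 2.35 and 2.74 with LOC400043 siRNA 1, and 1.45 and 2.83 with siRNA 2. Where miR-7-5p was lowest, with LINC00324 siRNA 2 and LOC400043 siRNA 1, the arrays of this arm overlapped with scramble.

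Differences of miR-7-1-3p from scramble were −0.33 and 0.24 with LINC00324 siRNAs 1 and 2 and 0.03 and −0.38 with LOC400043 siRNAs 1 and 2, each with an SE of 0.50. Every one is smaller than its SE. Scramble means of this arm stood 0.36 above the floor in run 1 and 1.21 above it in run 2, so no fall beyond those sizes could have been measured. The same 2 scramble arrays had a mean of 1.66 in run 1 and 2.52 in run 2, a gap between normalization runs larger than any of the 4 differences. The within-group SD of this arm was 0.57, at the 80.4th percentile of detected probe sets, against 0.25 for miR-7-5p.

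miR-7-2-3p, the partner strand from MIR7-2, was under the floor in 11 of its 12 values, the exception being 1.74 on an array of LOC400043 siRNA 1. No fold is given for it. The hairpin probe sets of MIR7-1, MIR7-2, MIR7-3 and MIR671, which report on precursors, were also under the floor, at 0.60 to 1.25 on every array with means of 0.80 to 0.94. None of the 4 was among the 83 detected hairpin probe sets. With the floor dropped and 1121 hairpin probe sets in the limma fit, 0 of the 4 passed in 4 comparisons, the smallest adjusted p being 0.794, with 0 at an unadjusted p under 0.05. The share called among all 1121 was not taken, and with signals under the floor nothing is read from these counts. Whether precursor levels changed was not detectable at these signals.

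miR-671-5p, the arm that cleaves CDR1as, showed no common shift. It read 4.61 and 4.69 in scramble cells of run 1, 4.77 and 3.75 with LINC00324 siRNA 1, and 4.88 and 4.66 with siRNA 2. In run 2 it read 4.86 and 4.71 for scramble, 3.68 and 5.17 with LOC400043 siRNA 1, and 4.58 and 4.37 with siRNA 2. Replicates were far apart in the 2 siRNA 1 groups and close in the others, and only LOC400043 siRNA 2 did not overlap with scramble.

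Differences of miR-671-5p from scramble were −0.40 and 0.12 with LINC00324 siRNAs 1 and 2 and −0.36 and −0.31 with LOC400043 siRNAs 1 and 2, with an SE of 0.51 each. All 4 are smaller than the SE. The within-group SD was 0.58, at the 82.0th percentile of detected probe sets, and came from a spread of 1.05 (SD, n = 2) in the LOC400043 siRNA 1 group and 0.72 (SD, n = 2) in the LINC00324 siRNA 1 group.

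miR-671-3p, the other arm of that hairpin, stayed close to the floor. It read 1.47 and 1.45 in scramble cells of run 1, 1.38 and 1.54 with LINC00324 siRNA 1, and 1.35 and 1.47 with siRNA 2. In run 2 it read 1.24 and 1.53 for scramble, 0.74 and 0.70 with LOC400043 siRNA 1, and 1.5 and 1.20 with siRNA 2. Both siRNA 1 arrays of LOC400043 lay below all others and below the floor, and 4 of the 12 values were under it. Their difference from scramble was −0.67 (SE 0.16), but at least 0.08 from the floor, so its size cannot be stated. In the LINC00324 groups the differences were 0.00 and −0.05 (SE 0.16).

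The array also carries probe sets for the same miRNAs of other species, which give further readings of the same RNA samples wherever they bind the human RNA. They are no independent replicates, and their sequences were not used here. Of 60 miR-7 probe sets of other species, main arm, 40 lay above the floor, with scramble means from 1.43 to 6.61. With LINC00324 siRNA 2, 40 of 40 lay below scramble, by a median of −1.70 (range −2.85 to −0.07), and in 36 both siRNA 2 arrays lay below both scramble arrays. Of the 322 detected human probe sets, 68.3% lay below scramble there, and 134 had both siRNA 2 arrays below both scramble arrays. In 6 of the 40 a siRNA 2 array lay under the floor, and with such arrays set to it the range was −2.67 to −0.05 with the same median. Over all 60, with those under the floor included, 52 lay below scramble and the median was −1.37. With LINC00324 siRNA 1, 26 of 40 lay below, by a median of −0.18 (range −1.21 to 0.79), against 57.8% of the 322. siRNA 2 lay below siRNA 1 in 39 of 40, against 56.2% of the 322.

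The probe set mmu-miR-7a gave the lowest of these LINC00324 siRNA 2 values, −2.85, or −2.67 with its 1 array under the floor set to it. The brightest 3, bta-miR-7, lgi-miR-7 and ssc-miR-7, had scramble means of 6.56 to 6.61, where the next highest was 4.66. Their differences with LINC00324 siRNA 2 were −0.46, −0.35 and −0.43, far smaller than the −2.40 of the human probe set. All 3 lay above scramble with siRNA 1, by 0.53, 0.55 and 0.17. Among the 40 above the floor, the size of the difference with siRNA 2 thus varied widely by probe set, and all lay below scramble. The floor was applied to the mean of all 10 arrays, scramble included. Of the 20 under it, 12 lay below scramble and 7 above, so the common direction is one of the 40 only.

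Of 11 passenger-arm miR-7 probe sets of other species, 4 lay above the floor, and 3 of the 4 lay below scramble with LINC00324 siRNA 2. That is near the 68.3% of all 322 detected human probe sets that lay below scramble there. The values were −1.24 for rno-miR-7a-star, −0.90 for mmu-miR-7a-star, −0.71 for tgu-miR-7-star and 0.89 for bmo-miR-7-star, with a median of −0.80. In 2 of the 4, those of rat and mouse, both siRNA 2 arrays lay below both scramble arrays. With LINC00324 siRNA 1, 3 of the 4 also lay below scramble, by a median of −0.22. These readings were mixed, and the human miR-7-1-3p value of 0.24 (SE 0.50) with siRNA 2 had no clear direction. The passenger arms are thus not settled by these arrays.

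For LOC400043 no scramble value of run 2 exists for these probe sets in the tables used, so only the 2 siRNAs were set against each other. Here the human probe set and the others parted. LOC400043 siRNA 2 exceeded siRNA 1 in 30 of 40, by a median of 0.32 (range −0.81 to 1.56), against 1.24 for the human probe set. Of the 322 detected human probe sets, 50% lay lower with siRNA 2 than with siRNA 1. Array medians of the 40 were 2.15 and 1.68 with siRNA 1 and 1.87 and 3.0 with siRNA 2, where the human probe set read 3.19 and 2.85. On siRNA 2 replicate 1 the human signal lay above the upper quartile of the 40, which was 2.42, and the median of the 40 lay between the 2 siRNA 1 arrays. On replicate 2 human probe set and median differed by little. The brightest 3 had differences between siRNAs of 0.31, −0.19 and 0.34, and mmu-miR-7a had 1.16. Relative to siRNA 1, both siRNA 2 arrays were thus high in the human probe set, and replicate 2 alone was high in the median of the others.

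**Figure D3:**
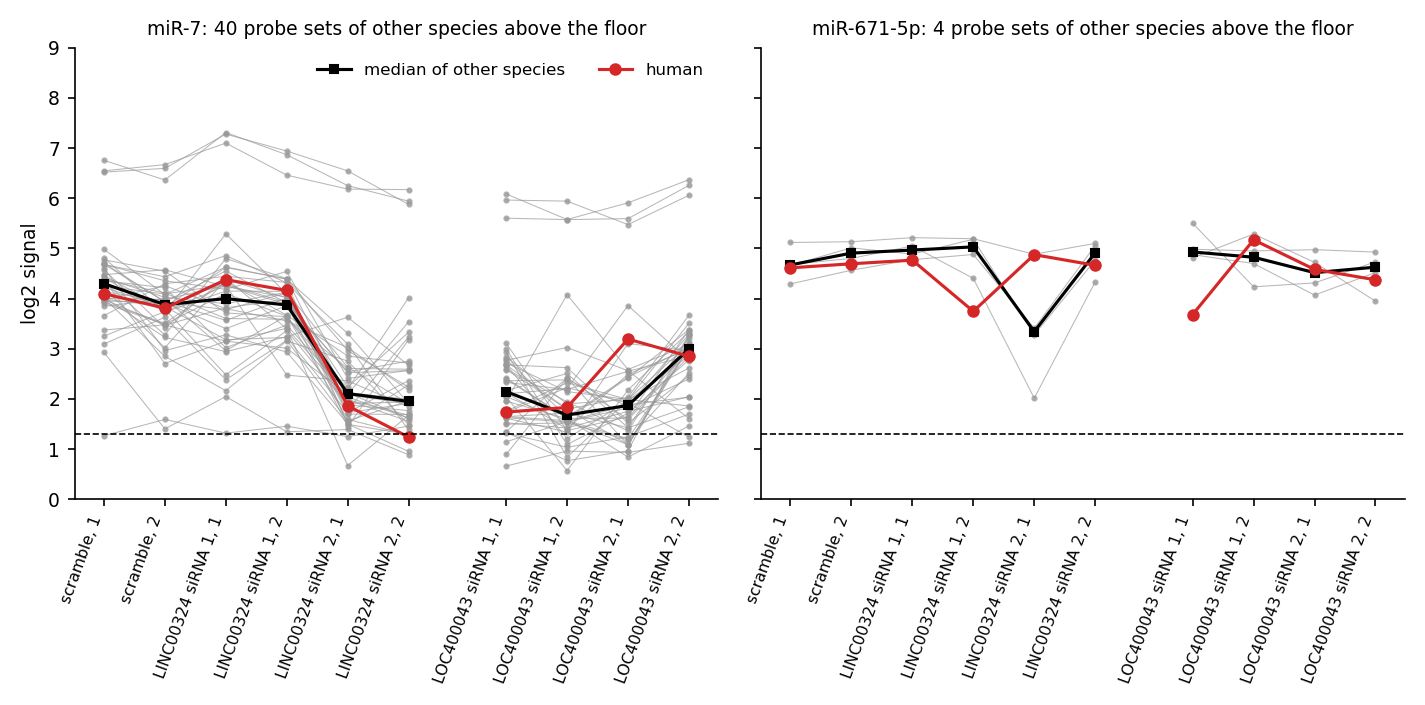
Log2 signal (vertical axis) on each of the 10 arrays (horizontal axis, run 1 left, run 2 right) of miR-7 (left panel) and miR-671-5p (right panel) probe sets of other species above the floor (grey), their median (black) and the human probe set (red), the dashed line being the floor. The miR-7 median is 4.30 and 3.88 on the scramble arrays and 2.11 and 1.95 with LINC00324 siRNA 2, and the human miR-7 point of LOC400043 siRNA 2 replicate 1 stands apart from the median.

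For miR-671-5p the probe sets of the other species and the human one were low on different arrays. The mouse probe set mmu-miR-671-5p stayed between 4.88 and 5.21 on all 10 arrays. The low human values of 3.75 and 3.68, on LINC00324 siRNA 1 replicate 2 and LOC400043 siRNA 1 replicate 1, faced medians of 5.03 and 4.93 over the 4 probe sets of other species. On LINC00324 siRNA 2 replicate 1 the reverse was seen: eca-miR-671-5p read 2.01, mml-miR-671-5p 3.28 and ppy-miR-671-5p 3.41, while the mouse and human probe sets both read 4.88. No array was low in all 5 probe sets. The differences from scramble with LINC00324 siRNA 2 were −1.57, −0.82, −0.20 and −0.13 for the eca, mml, ppy and mmu probe sets. The 4 miR-671-3p probe sets of other species had means of 1.20 to 1.36, around the floor.

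The detected miRNAs whose values were nearest to those of miR-7-5p were found by the root mean square difference of the changes from scramble over the 8 silenced arrays, the median over 321 probe sets being 1.62. Having been picked for likeness on these arrays, they share the directions of miR-7-5p by selection, and their values are given as descriptions. The nearest was miR-218-5p, a miRNA of motor neurons made from the SLIT genes, at 0.66. It differed from scramble by −0.36 and −2.18 with LINC00324 siRNAs 1 and 2 and by −3.09 and −0.99 with LOC400043 siRNAs 1 and 2. In the fit over all detected probe sets, its differences from scramble with LINC00324 siRNA 2 and LOC400043 siRNA 1 were called. Next were miR-766-3p at 0.71, miR-320e at 0.77, miR-28-3p at 0.80 and miR-30a-3p at 0.90. Of these, only miR-766-3p was called against scramble, with LINC00324 siRNA 2 (−1.63). All 5 lay lower with LINC00324 siRNA 2 than with siRNA 1, with differences from −1.81 to −1.03, and miR-218-5p alone of them was called there. With LOC400043, 4 of the 5 lay higher with siRNA 2 than with siRNA 1, miR-218-5p by 2.09, whereas miR-766-3p differed by −0.05. Only the difference of miR-218-5p was called there. GC content of the 5 ran from 38.1% to 68.2%.

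**Figure D4:**
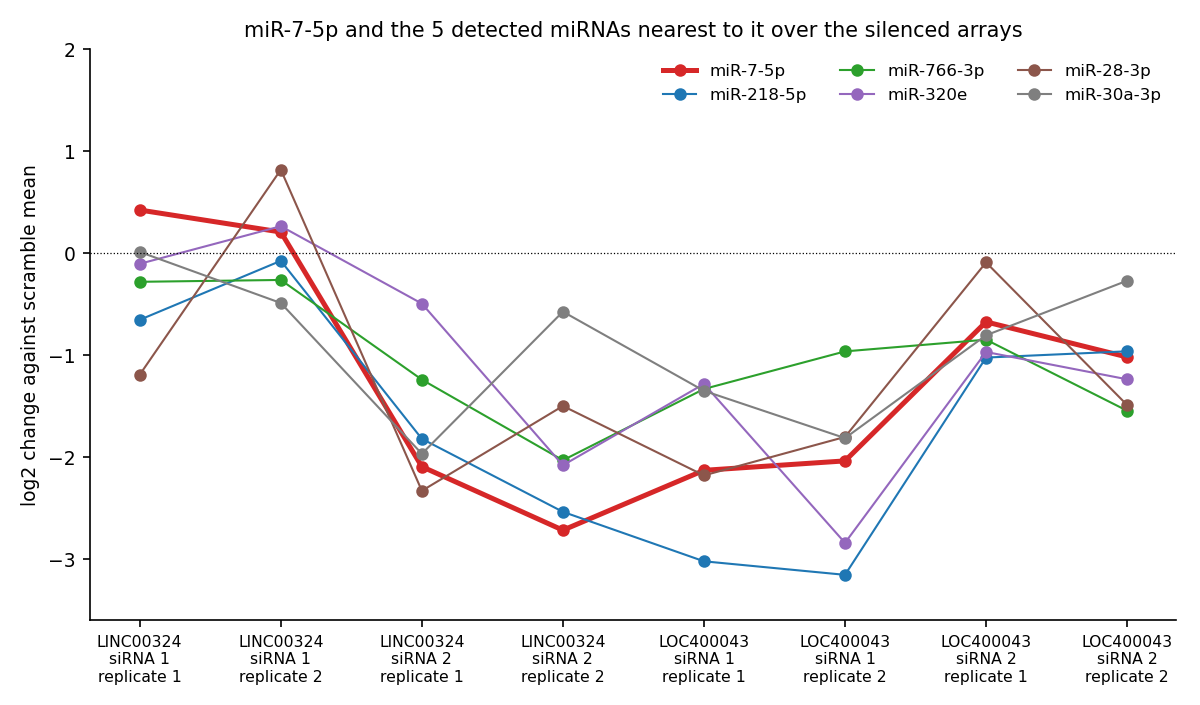
Log2 change from the scramble mean of the run (vertical axis) on the 8 silenced arrays (horizontal axis) for miR-7-5p and the 5 detected miRNAs nearest to it; lines only join the points of a miRNA. On the LINC00324 siRNA 2 and LOC400043 siRNA 1 arrays, miR-7-5p lies between −2.72 and −2.04 and the 5 others between −3.15 and −0.49.

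By the same measure miR-7-1-3p was nearest to miR-501-3p (0.33), miR-194-5p (0.40) and miR-664a-3p (0.43), with a median of 0.78 over all. miR-671-5p was nearest to miR-183-3p (0.31), miR-202-5p (0.40) and miR-501-5p (0.43), with a median of 0.76. miR-671-3p was nearest to miR-20a-5p, miR-27b-3p and miR-500a-5p, at 0.22, 0.22 and 0.23, with a median of 0.61.

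Other miRNAs known for destruction or release by a complementary RNA were taken as a list of 7 beside miR-7: miR-27a-3p, miR-27b-3p, miR-29b-3p, miR-30b-5p, miR-30c-5p, miR-221-3p and miR-222-3p. Of these 6 were detected, all but miR-29b-3p, and 0 passed the limma test in any of the 6 comparisons, higher or lower. With 1.55% to 9.94% of all detected probe sets called by comparison, 0 of 6 is near the background. Median differences of the 6 were 0.28 and 0.00 with LINC00324 siRNAs 1 and 2 and −0.31 and −0.15 with LOC400043 siRNAs 1 and 2, against −0.08, −0.21, −0.11 and −0.13 for all 322. The members of highest signal, which is no measure of relative amount, were miR-221-3p, at 10.8 in scramble cells, with differences of 0.46, 0.19, −0.24 and −0.03, and miR-222-3p, at 10.7, with 0.44, 0.15, −0.30 and −0.06. No member lay near the −2.40 of miR-7-5p with LINC00324 siRNA 2, the lowest of the 6 being −0.28.

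Of 11 miRNAs of neurons and endocrine cells, 4 were detected and 0 passed in any of the 6 comparisons, which is near the background of 1.55% to 9.94% as well. miR-132-3p, an activity-induced neuronal miRNA, was at 6.56 in scramble cells and differed by −0.20, −0.11, 0.18 and −0.03 with LINC00324 siRNAs 1 and 2 and LOC400043 siRNAs 1 and 2. miR-128-3p, a brain-enriched miRNA, differed by 0.06, 0.04, −0.65 and −0.48. The median of the 4 with LINC00324 siRNA 2 was −0.16. Of 2 other miRNAs with reported circular RNA partners, 1 was detected: miR-138-5p, which the circular RNA of Sry binds in mouse testis, was at 2.41 in scramble cells, near the lower end of detection, and differed by −0.96, −1.48, −0.03 and −0.95 (SE 0.82), none of which passed.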

How the data were processed

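Total RNA of 10 HEK-293 samples was measured on miRNA arrays, 1 array per sample, grouped by the siRNA in the labels. The authors deposited normalized log2 signals for 20706 probe sets, and 2 tables of human mature miRNAs whose file headers name log2 signals, a log2 fold change and a p-value. Per the submitters' processing notes, limma was used. The sources used here do not give the normalization method, the summarization or the build. The p-values deposited by the authors were not used.

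The LOC400043 columns belong to a second normalization run. For each probe set, the scramble mean of run 2 minus that of run 1 (median 0.07, SD 0.25 over detected probe sets) was subtracted from them. The authors' LOC400043 fold changes equal the resulting differences within 0.0005. The step assumes that the 2 scramble arrays are the same RNA in both runs. A further 4 columns of per-sample values match no label and were not used. Of 1100 human mature probe sets, 20 without a name in the tables were left out.

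Tests used limma 3.58.1 in R 4.3.3, with a mean per group over all 10 arrays (5 residual degrees of freedom), eBayes and Benjamini-Hochberg adjustment over the detected probe sets at 0.05. The fit was tested on simulated data of independent normal values, with changes placed in the LINC00324 siRNA 2 group only. The step between runs was not simulated, so that test does not cover the LOC400043 comparisons. "At least" differences set values under the floor to 1.31. Arrays number 2 per group, which limits the precision. Alternatives were quantile normalization, median centring, a linear GC trend removed per array, no floor, a floor at the 99th percentile (4.50, 143 probe sets), the replicate number as a block, the value table as deposited across runs, and each array left out.

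The members and lists were chosen with earlier results of these data known. The miRNAs named are the members, their hairpins, up to 3 probe sets of other species per set (mmu-miR-7a, the passenger arms and the single miR-671-5p probe sets were added after their values were seen), seed sharers, the nearest 5 or 3 by the measure given, and of each list those that passed or the 2 with the highest signal. Python 3.11.15 and matplotlib 3.10.9 drew the figures.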

Additional observations from a re-analysis of the deposited data

Results flagged for a closer look

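miR-7-5p stood out because the 2 siRNAs against LINC00324 lay on opposite sides of scramble, with both arrays of each siRNA on its own side of both scramble arrays. siRNA 1 lay above by 0.32 (SE 0.25), or 0.11 with the GC trend removed, and siRNA 2 below, at −2.4, on the log2 scale. Of the 40 miR-7 probe sets of other species above the floor, 26 lay below scramble with siRNA 1 and 14 above. The direct difference between the siRNAs for miR-7-5p was −2.72, and it was among the calls of the fit over all detected probe sets. As miR-7-5p was chosen on these comparisons, that call is no independent test, and the opposite signs against scramble were not tested.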

How the results depend on the processing

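The differences of miR-7-5p kept their direction in all 6 comparisons under each alternative that held it, which leaves out the stricter floor, above its mean of 2.95. With arrays left out in turn they ran from 0.17 to 0.46 for LINC00324 siRNA 1, −2.72 to −2.09 for LINC00324 siRNA 2, −2.28 to −1.89 for LOC400043 siRNA 1, −1.04 to −0.65 for LOC400043 siRNA 2, −3.03 to −2.41 between the LINC00324 siRNAs and 1.06 to 1.41 between the LOC400043 siRNAs. Quantile normalization gave 0.69, −1.85, −1.61 and −0.49 in the first 4 comparisons. Median centring gave −1.72 for LINC00324 siRNA 2, −1.84 and −0.55 for LOC400043 siRNAs 1 and 2, and −2.19 between the LINC00324 siRNAs. The GC trend removed gave 0.11 for LINC00324 siRNA 1, −1.45 and −0.46 for LOC400043 siRNAs 1 and 2, and 1.00 between the LOC400043 siRNAs. Median centring moved the median of all 322 from −0.21 to 0.47 for LINC00324 siRNA 2, from −0.11 to 0.13 and −0.13 to 0.16 for LOC400043 siRNAs 1 and 2, and from −0.05 to 0.48 between the LINC00324 siRNAs. Of 176 values of the other arms under alternatives, 140 kept their direction and 33 moved by more than 1 SD.

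Counts of detected probe sets called in limma depended on the setting, and the cause was not tested. LINC00324 siRNA 1 had 27 calls (2 higher, 25 lower), 26 with quantile normalization (7 and 19), 7 with median centring, 5 with the GC trend removed (1 and 4) and 0 to 25 with arrays left out. LINC00324 siRNA 2 had 32 (3 and 29), 3 with quantile normalization (2 and 1), 28 with median centring (24 and 4), 12 with the GC trend removed (8 and 4), 20 with no floor and 0 to 24 with arrays left out. LOC400043 siRNA 1 had 19 (11 and 8), 11 with quantile normalization (4 and 7), 17 with median centring (14 and 3), 2 with the GC trend removed (0 and 2), 42 with the stricter floor, 29 across runs as deposited and 0 to 1 with arrays left out. LOC400043 siRNA 2 had 5, 17 with the stricter floor, 9 across runs as deposited and 0 to 4 with arrays left out. Between the LINC00324 siRNAs there were 7 (1 and 6), 2 with quantile normalization (0 and 2), 3 with median centring (2 and 1), 4 with the GC trend removed (1 and 3) and 1 to 3 with arrays left out. Between the LOC400043 siRNAs there were 5 (2 and 3), 3 with median centring (2 and 1), 3 with the GC trend removed, 9 with the stricter floor and 0 to 1 with arrays left out. Leaving out scramble replicate 1 gave 0 calls in all 4 comparisons with scramble (45, 59, 50 and 32 at an unadjusted p under 0.05), and leaving out scramble replicate 2 gave 2, 4, 1 and 0 (47, 69, 59 and 43). 0 calls were also left without LINC00324 siRNA 1 replicate 1 (51 unadjusted), without either LOC400043 siRNA 1 array against scramble (53 and 58), and between the LOC400043 siRNAs without either siRNA 1 array or without siRNA 2 replicate 2 (32 each). Same-numbered arrays shared little of their deviation, with correlations from −0.14 to 0.16 over the 10 pairs of groups. Whether the samples were paired by culture or day is not given in the labels and cannot be settled this way. With the replicate block 9 were called for LOC400043 siRNA 1, 1 between the LINC00324 siRNAs and 2 between the LOC400043 siRNAs. No hairpin probe set of the 4 genes was above the floor, with or without the block.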
